A study of Mus musculus with 72 samples.

Results

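A set of 10 immediate early genes were followed through a mouse series on acute promyelocytic leukaemia (APL): Fos, Fosb, Fosl2, Jun, Junb, Jund, Egr1, Egr2, Ier2 and Ier3. They were found by gene symbol among the probe sets that the platform annotation assigns to a single symbol, with the brightest probe set kept for each symbol. All 10 of 10 were present among 19938 genes, and each was read by 1 probe set.

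Immediate early genes are transcribed within minutes of a stimulus, from factors already present in the cell and without new protein synthesis. Signals through the MAP kinases reach them by way of serum response factor, the ternary complex factors and other bound activators. Fos and Jun proteins pair through leucine zippers to form AP-1, and Egr proteins bind GC-rich DNA through zinc fingers. In myeloid cells both families are known for their part in the response to growth factors and in differentiation towards monocytes and macrophages. In APL a fusion of a partner protein with the retinoic acid receptor alpha arrests promyelocytes, and retinoic acid (RA) releases that arrest where the partner is PML, while PLZF/RARA leukaemia is known for its resistance.

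RNA of leukaemic bone marrow was hybridised to 72 Affymetrix Mouse Gene 1.0 ST arrays, in 16 groups. Transgenic mice on a Pml wild type background carried PML/RARA (4 untreated and 8 RA-treated arrays at 6 h, the same numbers at 12 h) or PLZF/RARA (2 untreated and 4 RA-treated arrays at each time). Leukaemias made by viral transduction carried PML/RARA on a Pml wild type or a Pml null background, each with 4 untreated and 8 RA-treated arrays at 6 h and 2 and 4 at 12 h. The labels number 4 batches, and since the 36 transgenic arrays (batches 1 and 2) and the 36 viral arrays (batches 3 and 4) share none, comparisons were made only within a model. All groups share a RARA fusion, and there was no normal marrow. For the promoter of each transgene, the viral vector, the age of the mice and the dose of RA, nothing is given in the sources used here. Nothing says either that replicate arrays stem from separate mice or leukaemias, so p-values treat the arrays as independent and measure the spread between them, which may be technical; were some to share a mouse or leukaemia, the p-values would not hold as given. The marrow was measured in bulk, where fewer cells of a type and less RNA per cell cannot be told apart.

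The arrays carried the defining genes of promyelocytes at a high level: over all 72, the log2 level of Mpo was between 12.41 and 13.51 and that of Elane between 11.54 and 13.73. Cyp26a1, which encodes an RA-degrading enzyme and is a direct RA target, rose in each of the 8 RA groups, by 3.36 to 5.76 on the log2 scale. The Pml probe set did not separate the arrays labelled Pml null from the wild type ones. In untreated viral arrays at 6 h the level lay between 9.20 and 9.41 in wild type and between 9.08 and 9.52 in null. The difference over both times was 0.04 ± 0.13 (log2, SE, limma adjusted p = 0.916). Which exons it reads was not tested, so it does not check the label. A pair of arrays stood apart in 9 heat shock genes, a set that responds to handling and stress. The mean level of these genes was 11.12 in replicate 3 of the RA-treated viral Pml wild type arrays at 6 h, against 9.29 to 9.86 in the other 7, and 10.97 in replicate 4 of that leukaemia at 12 h, against 9.55 to 9.70 in the other 3 treated arrays and 10.53 and 10.57 in the untreated ones. Calls of the viral fits that change without these arrays are given both ways, while the correlations were taken only with them.

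Promoters of 4 members called under RA, Fosl2 and Jun, which fell, and Junb and Ier3, which rose, are shown first. RefSeq start sites (GRCm38.p6) gave a window for 8 of the 10 genes, all but Ier2 and Egr1, and the 250 bases before the start are printed 5′ to 3′ on the strand of the gene, with every searched motif in capitals. They lie at chr5:32136222-32136471 (Fosl2, plus strand), chr4:95052223-95052472 (Jun, minus strand), chr8:84978749-84978998 (Junb, minus strand) and chr17:35821463-35821712 (Ier3, plus strand).
Fosl2: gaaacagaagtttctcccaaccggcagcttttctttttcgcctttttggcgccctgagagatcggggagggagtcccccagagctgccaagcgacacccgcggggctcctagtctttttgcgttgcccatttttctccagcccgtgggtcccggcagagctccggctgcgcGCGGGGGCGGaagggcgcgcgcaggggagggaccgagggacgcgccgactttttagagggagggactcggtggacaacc
Jun: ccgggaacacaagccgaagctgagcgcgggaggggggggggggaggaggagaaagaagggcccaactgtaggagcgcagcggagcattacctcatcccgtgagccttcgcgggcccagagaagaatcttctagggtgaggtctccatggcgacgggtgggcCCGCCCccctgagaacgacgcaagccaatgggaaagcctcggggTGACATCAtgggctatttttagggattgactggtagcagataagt
Junb: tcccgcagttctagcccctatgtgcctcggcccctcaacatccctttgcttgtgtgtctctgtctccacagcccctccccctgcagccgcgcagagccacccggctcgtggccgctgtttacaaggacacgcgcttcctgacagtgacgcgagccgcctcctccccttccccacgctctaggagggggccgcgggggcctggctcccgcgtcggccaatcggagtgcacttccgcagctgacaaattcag
Ier3: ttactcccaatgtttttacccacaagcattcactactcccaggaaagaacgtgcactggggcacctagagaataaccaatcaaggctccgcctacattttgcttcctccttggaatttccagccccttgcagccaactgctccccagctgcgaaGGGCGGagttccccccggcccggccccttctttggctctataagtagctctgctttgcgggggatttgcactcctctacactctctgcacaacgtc

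Motifs were searched on both strands. The Jun window holds TGACATCA, the AP-1-like site known from the Jun promoter, at positions -45 to -38 from the start, and 2.93% of all 32851 windows hold it. The Fosl2 window holds the Egr-type site GCGNGGGCG at positions -79 to -71, as does that of Fosb, against 4.7% of all windows. A GC box (CCGCCC, 32.74% of windows) was found for 6 of the 8 genes with a window, Fos, Fosb, Fosl2, Jun, Egr2 and Ier3. In Fosl2 it overlaps the Egr-type site. Egr2 has 5 windows, and a motif in any of them counted, whereas the shares are per single window. A TATA box (TATAAA, 12.37%) lies in the Fos window, and the C/EBP-type site TTNNGNAA (36.85%) in those of Jund and Egr2. Egr2 also holds a CArG box, the binding site of serum response factor (1.47% of windows, over 5 Egr2 windows). No member window holds the consensus AP-1 site TGANTCA (6.75%), the cAMP response element TGACGTCA (1.55%) or an RA response element of the DR5 type (0.09%), and the Junb window holds none of the motifs searched.

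The call used here is an adjusted p under 0.05, from limma's moderated test in a fit of each model's 36 arrays with batch as a term, adjusted over all 19938 genes. In transgenic PML/RARA, RA was followed by higher Junb and Ier3 and lower Fosl2 at both times, and by lower Jun at 12 h. That is 3 of 10 members called at 6 h, where 14.3% of all genes were called, and 4 of 10 at 12 h, where 21.6% were. In transgenic PLZF/RARA 2 of 10 were called at 6 h, Fosl2 down and Ier2 up, against 2.2% of all genes. At 12 h none of 10 was called by limma, against 4.03%. By the same test 1 member, Fosb, had an unadjusted p under 0.05, against 15.4% of all genes. In the viral leukaemias Fosl2 alone was called at 6 h, downwards, on both backgrounds: 1 of 10 in Pml wild type, against 9.88% of all genes, and 1 of 10 in Pml null, against 11.4%. At 12 h none of 10 was called by limma in Pml wild type, against 6.1% of all genes. There 1 member, Egr2, had an unadjusted p under 0.05, against 17.5% of all genes. In Pml null at 12 h 1 of 10, Ier2, rose, against 6.05%. The classical stimulus-induced genes Fos, Fosb, Egr1 and Egr2, and Jund, were called in none of the 8 RA effects. By mean level over the 72 arrays, Fos, Fosb and Egr2 stood at percentiles 46.91, 41.8 and 37.25 of all genes. Their levels, also in the untreated comparisons below, thus lay in the dimmer part of the array. The earliest time was 6 h, so a rise that had ended before then could not be seen.

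Marker genes of cell types and heat shock genes moved with RA as well. The list of 7 genes of promyelocytes and their primary granules had, in transgenic PML/RARA, 3 calls upwards and 1 downwards at 6 h, and 4 upwards and 3 downwards at 12 h. Their mean level ran from 11.38 to 11.64 untreated and from 11.75 to 11.94 treated at 6 h, and from 11.50 to 11.58 and from 11.83 to 12.01 at 12 h, without overlap. Of 4 erythroid genes 1 rose at 6 h, where their mean level was 8.49 to 10.33 untreated and 9.33 to 11.33 treated, and 3 at 12 h. None of 6 B cell genes was called at 6 h, and 1 rose and 1 fell at 12 h. Of 10 mature neutrophil genes none was called at 6 h, and 3 rose and 1 fell at 12 h. In the same effects 4 of 9 heat shock genes fell at each time and none rose, with mean levels of 10.08 to 10.34 untreated and 9.69 to 10.20 treated at 6 h, and of 9.91 to 10.08 and 9.59 to 9.95 at 12 h. Of 9 monocyte and macrophage genes none rose and 2 fell at 6 h, and 3 rose and 1 fell at 12 h.

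Of the 10 mature neutrophil genes, 0 and 4 rose at 6 and 12 h in PLZF/RARA. On the viral Pml null background 1 rose and 1 fell at 6 h and 4 rose at 12 h, with mean levels at 12 h of 9.33 to 9.71 untreated and 9.98 to 10.65 treated. Heat shock genes fell in viral Pml wild type, 3 of 9 at 6 h and 2 of 9 at 12 h, and none of 9 was called in PLZF/RARA or viral Pml null. The part of these genes' shifts in the RA effects of the members was not tested.

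**Figure D1:**
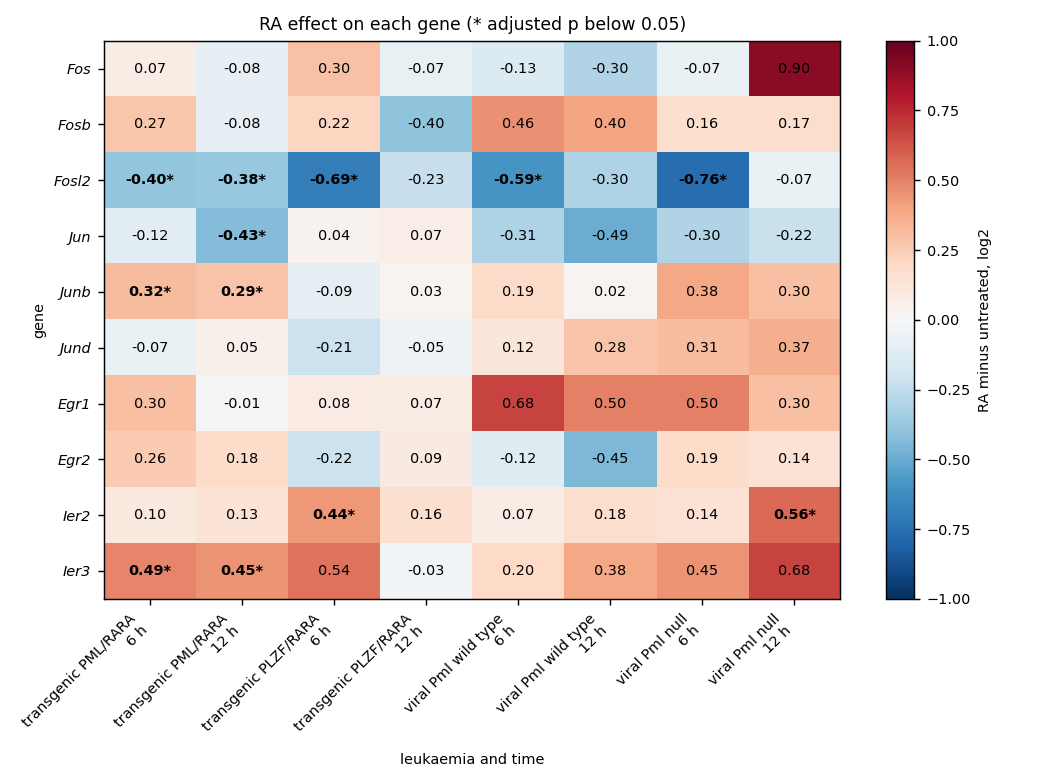
RA effects (RA minus untreated, log2) of the 10 genes in the 8 pairs of groups, with a colour scale centred on 0 and an asterisk at adjusted p under 0.05. The Fosl2 row carries 5 asterisks, all on negative values, while the rows of Fos, Fosb, Jund, Egr1 and Egr2 carry none.

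Fosl2 encodes Fra-2, a Fos family protein that lacks the strong activation domain of Fos, and it was the member whose level fell in most groups. In viral Pml wild type at 6 h its log2 level was 9.81, 9.70, 9.68 and 9.48 in the untreated arrays, and 8.92 to 9.22 with a median of 9.03 in the 8 RA-treated arrays. All 8 treated arrays lay below all 4 untreated ones. The effect was -0.59 ± 0.12 (log2, SE), or 0.66-fold, with adjusted p = 0.000791; within batch 3 it was -0.51 (adjusted p = 0.223) and within batch 4 -0.67 (adjusted p = 0.0181).

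In viral Pml null at 6 h the untreated Fosl2 levels were 9.76, 9.45, 9.63 and 9.42, and the RA-treated ones ran from 8.40 to 9.21 with a median of 8.81. The groups again did not overlap. The effect was -0.76 ± 0.12, or 0.59-fold (adjusted p = 2.45e-05), and both batches gave a call, with -0.68 (adjusted p = 0.0498) and -0.85 (adjusted p = 0.00606). At 12 h, in groups of 2 and 4, untreated levels were 9.61 and 9.24 and treated levels 9.49, 9.25, 9.45 and 9.24, which overlap throughout. The effect there was -0.07 ± 0.17 (adjusted p = 0.935). In Pml wild type at 12 h the untreated levels of 9.64 and 9.70 lay above the treated 9.50, 9.60, 9.02 and 9.33, with an effect of -0.30 ± 0.17 (adjusted p = 0.364).

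The Fosl2 effect at 12 h minus that at 6 h was 0.70 ± 0.20 in viral Pml null (adjusted p = 0.349) and 0.29 ± 0.20 in viral Pml wild type (adjusted p = 1), so neither change with time passed the test. The difference in RA effect between the backgrounds, averaged over both times, was -0.03 with a 95% interval of -0.33 to 0.26.

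In transgenic PML/RARA the untreated Fosl2 levels were 8.97, 9.03, 9.04 and 9.34 at 6 h, and the 8 RA-treated arrays ran from 8.49 to 8.98, with a median of 8.76. A single treated array, at 8.98, reached into the untreated range. The effect was -0.40 ± 0.11, or 0.76-fold (adjusted p = 0.00764). It was not called without untreated replicate 4, the array at 9.34 (-0.34, adjusted p = 0.0845), nor within batch 1 (-0.36, adjusted p = 0.134), while within batch 2 it was -0.46 (adjusted p = 0.0108). At 12 h, where all arrays are of batch 1, untreated levels of 9.26, 9.17, 9.15 and 9.29 lay above all 8 treated arrays, which ran from 8.65 to 9.12 with a median of 8.83. The effect was -0.38 ± 0.10, or 0.77-fold (adjusted p = 0.0063), and leaving out any single array kept the call.

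In transgenic PLZF/RARA at 6 h the untreated Fosl2 levels were 9.05 and 9.08 and the RA-treated ones 8.25, 8.62, 8.08 and 8.55, with no overlap. The effect was -0.69 ± 0.14, or 0.62-fold (adjusted p = 0.00579); with untreated replicate 1 removed it was -0.71 (adjusted p = 0.124), and with untreated replicate 2 removed -0.68 (adjusted p = 0.11). The untreated arrays at 12 h, 8.38 and 8.96, differed among themselves by more than the effect of -0.23 ± 0.14 (adjusted p = 0.471), and the treated 8.18, 8.65, 8.34 and 8.59 overlapped them. The RA effects of the fusions differed by 0.08, with a 95% interval of -0.18 to 0.33, so a smaller or a larger response of PLZF/RARA within that interval could not be told apart from an equal one.

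**Figure D2:**
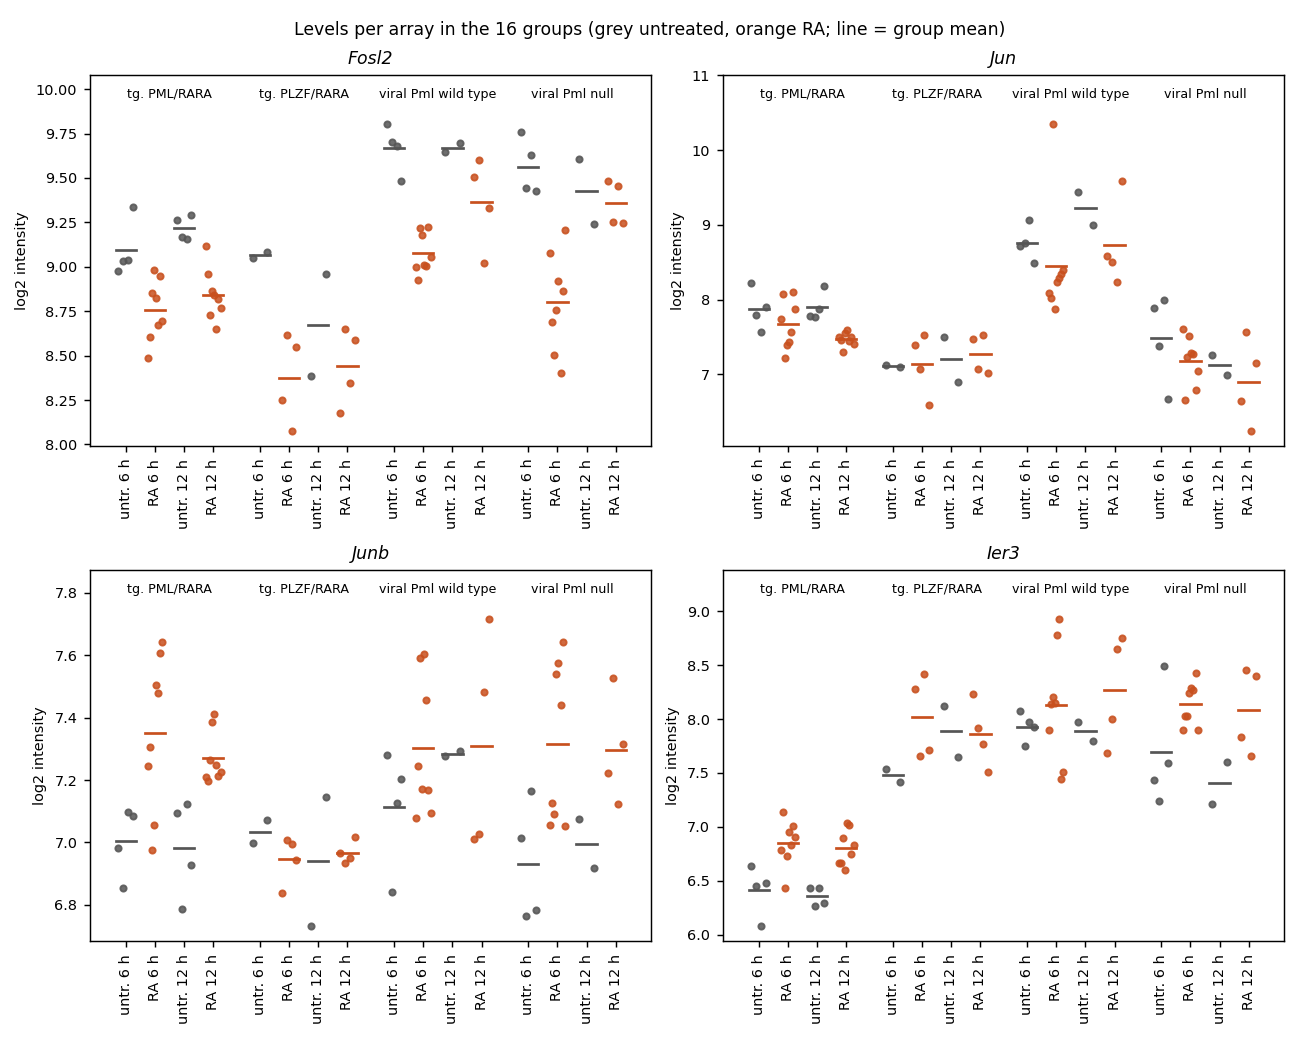
Log2 levels of Fosl2, Jun, Junb and Ier3 in every array of the 16 groups, untreated in grey and RA-treated in orange, with a line at each group mean. In the Fosl2 panel the orange points lie below the grey ones in both viral leukaemias at 6 h, and in the Jun panel 1 treated viral Pml wild type array at 6 h stands at 10.35.

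Fos, the prototype of the family and the usual AP-1 partner of Jun, varied less within groups in the transgenic arrays (residual SD 0.23) than in the viral ones (0.57). With transgenic PML/RARA it was 6.38, 6.27, 6.33 and 6.33 untreated at 6 h, and 5.93 to 7.02 with a median of 6.39 after RA, so treated arrays lay on both sides of the untreated ones. In viral Pml null at 12 h the untreated levels were 6.33 and 6.08, and the treated ones 6.99, 7.52, 6.71 and 7.22. These groups did not overlap, but with 2 untreated arrays the effect of 0.90 ± 0.46 was not called (95% interval -0.04 to 1.84, adjusted p = 0.34). In viral Pml wild type at 12 h, by contrast, the treated arrays spread over 6.33, 6.82, 7.64 and 8.41 around untreated levels of 7.73 and 7.48. The highest of them is the array high in heat shock genes, and the effect was -0.30 ± 0.46 (adjusted p = 0.89).

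Fosb encodes a further Fos family protein, made in a full and a truncated form. Its untreated levels in viral Pml wild type were 6.40, 6.44, 6.35 and 6.57 at 6 h, and the RA-treated ones ran from 6.44 to 7.91 with a median of 6.77. The effect of 0.46 ± 0.32 (adjusted p = 0.477) was not called. In transgenic PLZF/RARA the untreated Fosb levels of 5.90 and 5.91 at 6 h lay below the treated 6.09, 6.35, 6.02 and 6.03, whereas at 12 h the untreated 6.45 and 6.34 lay at or above most of the treated 6.00, 5.85, 5.74 and 6.37. Neither effect was called (0.22, adjusted p = 0.57, and -0.40, adjusted p = 0.19). Without RA-treated replicate 4, the array at 6.37, the effect at 12 h was -0.53 (adjusted p = 0.047).

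Jun, whose product is the most active partner in AP-1, fell under RA in transgenic PML/RARA at 12 h. The untreated levels were 7.78, 7.76, 7.87 and 8.19, and the 8 treated arrays lay closely between 7.30 and 7.59 with a median of 7.48, all below the untreated ones. The effect was -0.43 ± 0.15, or 0.74-fold (adjusted p = 0.032). It was not called without RA-treated replicate 3 (-0.41, adjusted p = 0.0566), without untreated replicate 3 (-0.44, adjusted p = 0.063) or without untreated replicate 4, the array at 8.19 (-0.34, adjusted p = 0.172), nor in 1 fit of all 72 arrays (adjusted p = 0.278). At 6 h the untreated 8.22, 7.79, 7.57 and 7.89 overlapped the treated range of 7.22 to 8.10, with an effect of -0.12 (adjusted p = 0.727).

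In viral Pml wild type at 6 h the untreated Jun levels were 8.72, 8.76, 9.07 and 8.49. Of the 8 treated arrays, 7 ran from 7.88 to 8.39, all below the untreated ones, and replicate 3 stood at 10.35. The effect was -0.31 ± 0.32 (adjusted p = 0.68) with that array and -0.58 (adjusted p = 0.152) without it. In transgenic PLZF/RARA the untreated levels of 7.12 and 7.09 at 6 h lay inside the treated 7.39, 7.07, 7.53 and 6.59.

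Junb encodes an AP-1 subunit that is a weaker activator than Jun and is known as a brake on myeloid proliferation in mice. It rose in transgenic PML/RARA at both times. At 6 h the untreated levels were 6.98, 6.85, 7.10 and 7.08, and the treated ones 6.98 to 7.64 with a median of 7.39. At 12 h all 8 treated arrays, between 7.20 and 7.41 with a median of 7.24, lay above the untreated 7.09, 6.79, 7.12 and 6.93.

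The Junb effects were 0.32 ± 0.10, or 1.24-fold, at 6 h (adjusted p = 0.0232) and 0.29 ± 0.09, or 1.22-fold, at 12 h (adjusted p = 0.0247). Both calls were lost without single arrays. At 6 h the adjusted p was 0.0754, 0.0642 and 0.08 without untreated replicates 2, 3 and 4, and 0.0613 without RA-treated replicate 2. It was 0.211 within batch 1 (0.29) and 0.0327 within batch 2 (0.36). At 12 h it was 0.143 and 0.0792 without untreated replicates 2 and 4, and 0.069 with quantile normalization repeated. In 1 fit of all 72 arrays neither effect was called (adjusted p = 0.0767 at 6 h and 0.0759 at 12 h).

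For PLZF/RARA the transgenic Junb levels at 6 h were 7.0 and 7.07 untreated and 6.84, 7.01, 7.0 and 6.94 after RA, with an effect of -0.09 ± 0.13. The difference in RA effect between the fusions was 0.33 ± 0.12, with a 95% interval of 0.10 to 0.57, and it missed the call (adjusted p = 0.078). It passed without PLZF/RARA untreated replicate 1 at 12 h (0.44, adjusted p = 0.0223) and without RA-treated PML/RARA replicate 3 (adjusted p = 0.0257) or 4 (adjusted p = 0.043) at 6 h. In viral Pml null at 6 h the untreated levels were 7.02, 6.77, 7.16 and 6.78 and the treated range was 7.05 to 7.64. The effect of 0.38 ± 0.13 (adjusted p = 0.0589) passed without RA-treated replicate 1 (adjusted p = 0.0439) or replicate 8 (adjusted p = 0.026). It also passed with the arrays high in heat shock genes left out of the viral fit (adjusted p = 0.0315) and in 1 fit of all 72 arrays (adjusted p = 0.0171). In both of the latter fits the effect stayed at 0.38.

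Jund, the constitutive member of the Jun family, varied about as little as Junb within the transgenic groups (residual SD 0.15 and 0.16). In the viral arrays it varied more than Junb (0.33 against 0.23). At 12 h in transgenic PML/RARA the untreated levels were 8.73, 8.86, 8.90 and 8.81 and the treated ones 8.71 to 8.97, with a median of 8.89. The 8 RA effects of Jund lay between -0.21 and 0.37, and none was called.

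Egr1 encodes a zinc finger factor that favours macrophage over granulocyte differentiation in myeloid progenitors. It had the widest spread of the members within the transgenic groups (residual SD 0.53). The untreated transgenic PML/RARA arrays at 6 h were at 7.56, 7.10, 7.34 and 6.95, and the treated ones ran from 6.56 to 9.13 with a median of 7.23. The highest treated arrays were replicates 7 and 8, at 9.13 and 8.46, where Fos was also highest, at 7.02 and 6.78. The effect of 0.30 ± 0.30 was not called (adjusted p = 0.628).

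In viral Pml wild type the untreated Egr1 levels at 6 h were 6.68, 6.35, 7.14 and 6.53, and the treated ones 6.74 to 8.22 with a median of 7.20. Most treated arrays lay above most untreated ones, and the effect was 0.68 ± 0.29, with a 95% interval of 0.08 to 1.27 and adjusted p = 0.164. At 12 h the levels were 7.10 and 6.89 untreated, and 6.69, 6.93, 7.96 and 8.40 treated; the last of these is the array high in heat shock genes.

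Egr2, known for its part with Egr1 in macrophage differentiation, differed between the Pml backgrounds in its untreated level, given below. Its RA effects were not called on either background. In viral Pml wild type at 12 h the untreated levels were 6.84 and 6.65, and all treated arrays lay lower, at 6.26, 6.42, 6.13 and 6.36. The effect was -0.45 ± 0.15 (adjusted p = 0.0624, and 0.0316 in 1 fit of all 72 arrays). In viral Pml null at 12 h the untreated 5.84 and 5.87 overlapped the treated 6.06, 5.97, 5.86 and 6.12, with an effect of 0.14 ± 0.15.

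The RA effects of Egr2 on the backgrounds differed by -0.45 ± 0.13 (95% interval -0.71 to -0.19), short of the call at adjusted p = 0.081. The difference was called without untreated Pml wild type replicate 2 at 6 h (-0.51, adjusted p = 0.0296), without RA-treated replicate 3 at 6 h (-0.48, adjusted p = 0.0303), in 1 fit of all 72 arrays (adjusted p = 0.0325), and with both arrays high in heat shock genes left out (-0.49, adjusted p = 0.0353). In that last fit the effect in Pml wild type at 12 h was -0.47 (adjusted p = 0.0493). In transgenic PML/RARA at 6 h the untreated levels of 5.93, 5.93, 6.01 and 5.96 lay near the bottom of the treated range of 5.91 to 6.41, and the effect of 0.26 ± 0.10 was not called (adjusted p = 0.0723). It was called without RA-treated replicate 1 (0.33, adjusted p = 0.022) or replicate 3 (0.28, adjusted p = 0.0457).

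Ier2 encodes a small nuclear protein that is induced together with Fos and Jun. At 6 h in transgenic PLZF/RARA the untreated levels were 7.40 and 7.17 and the treated ones 8.0, 7.56, 7.72 and 7.60, all above. The effect was 0.44 ± 0.11, or 1.35-fold (adjusted p = 0.0361). The adjusted p was 0.123 and 0.447 without either untreated array, 0.14 without RA-treated replicate 1 and 0.0536 without replicate 3. In 1 fit of all 72 arrays it was 0.0579, and it was 0.0604 with arrays centred on their median, 0.051 with a trended, robust prior and 0.0511 with array weights.

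At 12 h in viral Pml null Ier2 was at 7.42 and 7.45 untreated, and at 7.92, 8.33, 7.78 and 7.96 after RA, again without overlap. The effect was 0.56 ± 0.14, or 1.48-fold (adjusted p = 0.00782). Without either untreated array it was 0.54 and 0.58 (adjusted p = 0.101 and 0.0984), and with untreated arrays of both times pooled it was 0.32 (adjusted p = 0.0557). At 6 h in the same leukaemia the untreated levels were 7.61, 7.52, 8.17 and 7.66, the third reaching above all treated arrays (7.73 to 8.11), and the effect was 0.14 ± 0.10.

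Ier3, also known as IEX-1, encodes an inhibitor of apoptosis whose transcription NF-kappa B and other stress signals drive. In transgenic PML/RARA it rose at both times. At 6 h the untreated levels were 6.64, 6.45, 6.08 and 6.48 and the treated ones 6.44 to 7.14 with a median of 6.87. At 12 h the untreated 6.43, 6.27, 6.43 and 6.30 lay below all 8 treated arrays, which ran from 6.60 to 7.03 with a median of 6.79.

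The Ier3 effects were 0.49 ± 0.14, or 1.40-fold, at 6 h (adjusted p = 0.0124) and 0.45 ± 0.13, or 1.37-fold, at 12 h (adjusted p = 0.0119). At 6 h the call was lost without untreated replicate 3, the array at 6.08 (0.38, adjusted p = 0.139), and within batch 1 (0.53, adjusted p = 0.0667) and batch 2 (0.42, adjusted p = 0.0726) taken alone. In 1 fit of all 72 arrays neither effect was called (adjusted p = 0.107 at 6 h and 0.0988 at 12 h). In transgenic PLZF/RARA at 6 h the untreated 7.53 and 7.42 lay below the treated 8.28, 7.66, 8.42 and 7.72. The effect of 0.54 ± 0.19 had adjusted p = 0.139, and 0.0365 without RA-treated replicate 2, where it was 0.66. At 12 h in viral Pml null the untreated 7.21 and 7.61 lay below the treated 7.83, 8.46, 7.66 and 8.40 (0.68 ± 0.33, adjusted p = 0.297).

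The order of the group means is given within each model. In the transgenic arrays the mean Ier3 level fell into separate blocks by fusion: PLZF/RARA had the 4 highest means, from 8.02 ± 0.39 (SD, n = 4, RA at 6 h) down to 7.48 ± 0.08 (n = 2, untreated at 6 h), and PML/RARA the 4 lowest, from 6.85 ± 0.21 (n = 8, RA at 6 h) to 6.36 ± 0.09 (n = 4, untreated at 12 h). Jun had the reverse order, with all 4 PML/RARA means above all 4 PLZF/RARA means, from 7.90 ± 0.20 (n = 4, untreated at 12 h) to 7.11 ± 0.02 (n = 2, untreated at 6 h). No neighbouring pair of Jun means in that order was farther apart than the larger SD of the pair.

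In the viral arrays the 4 Pml wild type means of Jun, 9.22 ± 0.31 (n = 2, untreated at 12 h) to 8.45 ± 0.79 (n = 8, RA at 6 h), lay above the 4 Pml null means, 7.48 ± 0.61 (n = 4, untreated at 6 h) to 6.90 ± 0.58 (n = 4, RA at 12 h). Egr2 had the same split, from 6.74 ± 0.13 (n = 2) down to 5.84 ± 0.11 (n = 4). Fosl2 was ordered by treatment instead, with a clear gap only for RA at 6 h. Its 4 untreated means, 9.67 ± 0.04 (n = 2, Pml wild type at 12 h) to 9.42 ± 0.26 (n = 2, Pml null at 12 h), were the highest. RA at 12 h came next, 9.37 ± 0.25 (n = 4) in Pml wild type and 9.36 ± 0.13 (n = 4) in Pml null. The gap from the lowest untreated mean to these was 0.06, less than the SD. RA at 6 h gave the lowest means, 9.08 ± 0.11 (n = 8) in Pml wild type and 8.80 ± 0.27 (n = 8) in Pml null. Over the 10 members, 10 of 70 neighbouring pairs of transgenic means and 12 of 70 viral ones were farther apart than the larger SD of the pair. The arrays of 65 pairs overlapped in each model. The same counts were not computed for other genes, so they do not set the members apart.

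Differences in RA effect between leukaemias were tested directly, on the mean of both times, with the arrays already described. Of the 10 members none was called between PML/RARA and PLZF/RARA by limma, where 7.42% of all genes were. An unadjusted p under 0.05 was reached by 2 of 10 (Junb and Egr2), the same share as the 20% of all genes. Between Pml wild type and Pml null none was called, where 1.13% of all genes were. Here 1 of 10 (Egr2) had an unadjusted p under 0.05, against 7.67% of all genes. The effect at 12 h minus that at 6 h was called by limma for no member in transgenic PML/RARA (0.231% of all genes), transgenic PLZF/RARA (0.0251%), viral Pml wild type (0%) or viral Pml null (0.0351%). At an unadjusted p under 0.05 these counts were 1, 3, 0 and 2, against 8.14%, 12%, 1.49% and 6.31% of all genes. Few genes of any kind passed the test of a change with time.

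The untreated leukaemias differed in several members, and Ier3 in the transgenic and Jun in the viral model had the largest called difference of any member there. In the transgenic model 4 of 10 members were called between PML/RARA and PLZF/RARA on the mean of both times, against 25.3% of all genes. Fos, Fosl2 and Jun were higher with PML/RARA and Ier3 was lower. In the viral model 2 of 10, Jun and Egr2, were called between the Pml backgrounds, against 20.8% of all genes, both higher in the arrays labelled Pml wild type.

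Untreated Jun ran from 8.49 to 9.44 with a median of 8.88 in the 6 viral Pml wild type arrays, and from 6.66 to 7.99 with a median of 7.31 in the 6 arrays labelled Pml null. The groups did not overlap. The difference was 1.69 ± 0.32 (95% interval 1.04 to 2.34), or 3.22-fold, with adjusted p = 0.000115. Within batch 3 it was 1.77 (adjusted p = 0.000187), and no single array removed the call.

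Untreated Egr2 ran from 6.08 to 6.84 with a median of 6.57 in Pml wild type, and from 5.69 to 5.96 with a median of 5.86 in Pml null, without overlap. The difference was 0.72 ± 0.10, or 1.65-fold (adjusted p = 1.62e-06), and 0.79 within batch 3 (adjusted p = 1.13e-05). Fos was higher in wild type by 0.85 ± 0.33, which missed the call (adjusted p = 0.0648). In 1 fit of all 72 arrays it was called (adjusted p = 0.00929), as was Jund (0.52, adjusted p = 0.00697). In Pml null replicate 3 at 6 h stood at 8.87, while the other untreated null arrays lay between 6.08 and 7.29. Without that array the Fos difference was 1.14 (adjusted p = 0.000974), Jund (0.58, adjusted p = 0.0306) and Ier2 (0.29, adjusted p = 0.0171) were called too, and the count rose to 5 of 10. The share of all genes called without that array was not computed. Jund was also called without untreated Pml null replicate 2 at 12 h (0.71, adjusted p = 0.0163). With the arrays high in heat shock genes left out, 4 of 10 were called, Fos (adjusted p = 0.0385), Jun, Jund (adjusted p = 0.0357) and Egr2. Neither of those arrays is untreated, and the Fos and Jund differences stayed at 0.85 and 0.52. Here too the share of all genes called was not computed.

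Other marker genes moved with these differences. All 10 mature neutrophil genes were higher in untreated Pml wild type, with a median difference of 2.36 on the log2 scale, and their mean level lay between 11.55 and 12.20 in wild type and between 9.33 and 10.20 in null. Of 9 monocyte and macrophage genes 5 were higher and none lower, with a median of 0.71, and 2 of 6 B cell genes were lower. Of 7 promyelocyte and primary granule genes 2 were higher and 5 lower. Of 6 T and NK cell genes and of 6 eosinophil, basophil and mast cell genes 1 each was higher and 1 lower, 1 of 4 megakaryocyte genes was higher, 1 of 6 stromal genes was lower and none of 4 erythroid genes was called. Of 9 heat shock genes 3 were higher and none lower, with a median of 0.31. The part of these cells or of stress in the Jun and Egr2 differences was not tested.

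In the transgenic model untreated Ier3 showed the largest difference of the 10 members. It ran from 6.08 to 6.64 with a median of 6.43 in the 8 PML/RARA arrays, and from 7.42 to 8.13 with a median of 7.59 in the 4 PLZF/RARA arrays. The groups lay far apart. The difference was -1.35 ± 0.14 (95% interval -1.63 to -1.07), or 0.39-fold, with adjusted p = 8.72e-10, and -1.37 within batch 1 (adjusted p = 8.58e-09).

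Untreated Jun ran from 7.57 to 8.22 with PML/RARA and from 6.90 to 7.50 with PLZF/RARA, again without overlap. The difference was 0.66 ± 0.15, or 1.58-fold (adjusted p = 0.00113), and 0.66 within batch 1 (adjusted p = 0.00232). In 1 fit of all 72 arrays it was not called (0.66, adjusted p = 0.0622). Fosl2 was higher with PML/RARA by 0.35 ± 0.11 (adjusted p = 0.0121), with ranges of 8.97 to 9.34 and 8.38 to 9.08 that overlap. That call was lost without PLZF/RARA replicate 1 at 12 h, the array at 8.38 (0.21, adjusted p = 0.218). By time, the Fosl2 means were 9.10 with PML/RARA and 9.07 with PLZF/RARA at 6 h, and 9.22 and 8.67 at 12 h. The untreated differences were not tested at each time alone.

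Untreated Fos means were 6.32 with PML/RARA and 5.68 with PLZF/RARA at 6 h, and 6.18 and 6.09 at 12 h, where the arrays overlapped. PLZF/RARA had 2 of these arrays at each time. Averaged over both times, Fos was higher with PML/RARA by 0.36 ± 0.14 (adjusted p = 0.0467), with ranges of 6.04 to 6.38 and 5.64 to 6.11. This call rests on every array but a pair: the adjusted p lay between 0.0591 and 0.139 on leaving out any untreated array other than PML/RARA replicate 2 at 6 h or replicate 3 at 12 h, and it was 0.0753 within batch 1, 0.0771 with quantile normalization repeated and 0.374 in 1 fit of all 72 arrays. Beside these differences, all 4 erythroid genes measured were higher with PML/RARA, with a median difference of 3.42, and their mean level was 8.49 to 10.33 against 6.27 to 6.84. Of 6 T and NK cell genes 4 were higher, with a median of 0.95 and mean levels of 6.5 to 7.02 with PML/RARA against 5.44 to 5.78. Of 9 monocyte and macrophage genes 5 were higher and 1 lower, with a median of 0.28 and mean levels of 9.45 to 9.69 against 8.90 to 9.11. Of 10 mature neutrophil genes 5 were higher (median 0.42), and of 6 eosinophil, basophil and mast cell genes 4 were lower (median -0.93). Further genes higher with PML/RARA were 3 of 4 of megakaryocytes, with 1 lower, 4 of 6 of stroma, 2 of 6 of B cells and 3 of 7 of primary granules, with 2 lower. Of 9 heat shock genes 2 were higher. Their part in the differences was not tested.

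**Figure D3:**
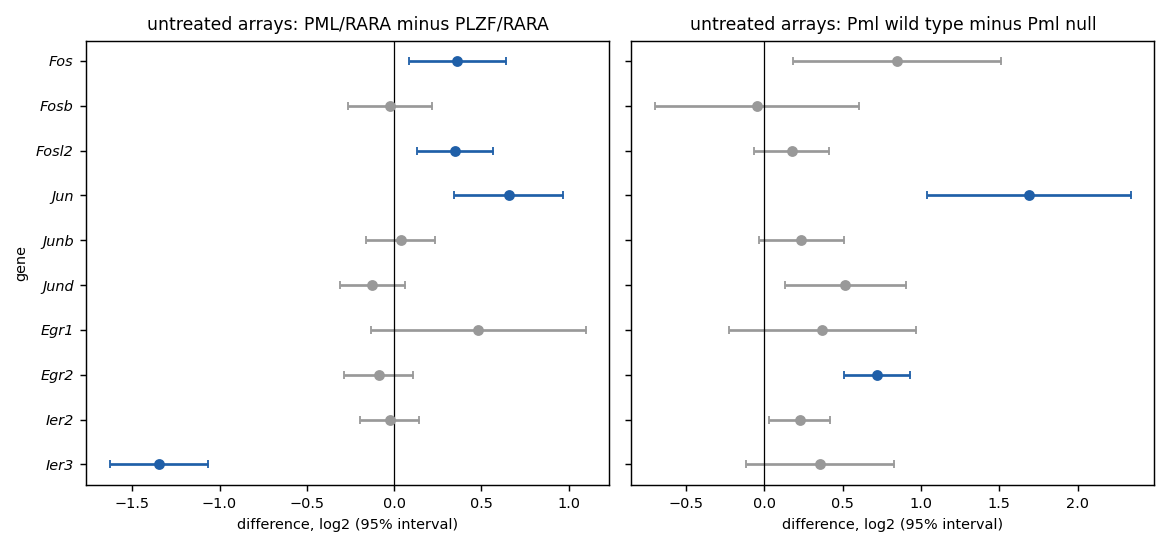
Untreated differences (log2) of the 10 genes with 95% intervals, PML/RARA minus PLZF/RARA in the transgenic model and Pml wild type minus Pml null in the viral model, called genes in blue and the others in grey. Ier3 lies at -1.35 in the first panel, and Jun at 1.69 and Egr2 at 0.72 in the second.

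The members' levels varied together from array to array within groups, most of all in the viral model. Pearson's r was taken over each model's 36 arrays after the group means and batch differences had been removed. Permutation p-values were adjusted over 90 tests of each coefficient. The arrays high in heat shock genes were kept in, and the correlations were not repeated without them. In the viral model 38 of 45 pairs of members had r above 0, with a median of 0.43, and 22 pairs had an adjusted p under 0.05, all with positive r. In 15 of these pairs Spearman's rho passed as well. In the transgenic model 34 of 45 pairs had r above 0, with a median of 0.22, and 10 passed for r and 6 for both coefficients. How many pairs of other genes pass the same test was not computed, so these counts do not set the members apart from other genes.

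Junb and Egr1 were the closest viral pair, with r = 0.79 and rho = 0.75 (adjusted permutation p = 0.00045 and 0.00135), and r = 0.72 without the 2 arrays farthest from the median of Junb. Junb and Ier3 had r = 0.73 and rho = 0.77 (adjusted permutation p = 0.00045 and 0.00135), and r = 0.73 without the 2 farthest arrays. Fos and Fosb had r = 0.69 and rho = 0.71 (adjusted permutation p = 0.0052 and 0.015), falling to r = 0.57. All 3 relations stayed positive without their extreme arrays.

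In the transgenic arrays Fos and Egr1 had r = 0.73 and rho = 0.52 (adjusted permutation p = 0.0123 and 0.0476), and r = 0.57 without the 2 arrays farthest in Fos. Jun and Ier3 had r = 0.66 and rho = 0.62 (adjusted permutation p = 0.00926 and 0.0236), and r = 0.62 without the 2 farthest. Fosl2 ran the other way against Ier3, with r = -0.56 and rho = -0.51 in the transgenic model and r = -0.33 and rho = -0.38 in the viral model. Neither of these passed (adjusted permutation p = 0.0559 and 0.0926 transgenic, 0.0778 and 0.0926 viral). Arrays of a model share preparation and hybridisation, whose part in these relations was not tested.

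**Figure D4:**
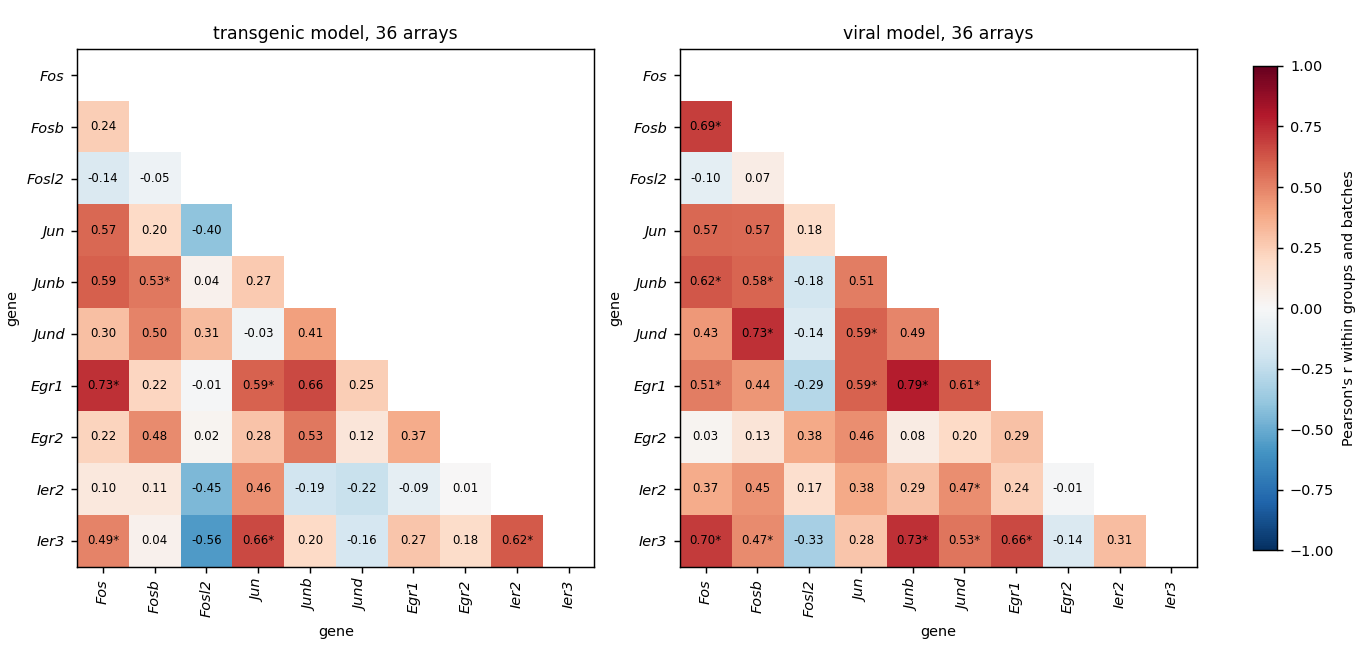
Pearson's r between the members over the 36 arrays of each model, after group and batch means were removed, on a colour scale centred on 0, with an asterisk where both r and rho passed at an adjusted p under 0.05. The viral panel carries 15 asterisks and the transgenic panel 6, and the lowest value in each panel is that of Fosl2 with Ier3, -0.56 and -0.33.

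The single arrays that stood highest in their groups did so for several members, but not for all. In viral Pml wild type at 6 h RA-treated replicate 3 had the highest Jun (10.35), Fosb (7.91), Egr1 (8.22) and Egr2 (6.65) of its group, and it is an array high in heat shock genes. In viral Pml null at 6 h RA-treated replicate 5 had the highest Fosb (8.63) and Jund (9.86), while its Fos, at 7.26, lay in the middle of its group. Untreated replicate 3 of the same leukaemia and time had the highest Fos (8.87), Fosb (7.94), Junb (7.16), Jund (9.06), Ier2 (8.17) and Ier3 (8.50) of its group. Its heat shock mean was 9.66, and its Egr1, at 6.29, lay with the others of its group. The Fosb effect of viral Pml null at 6 h was 0.16 with all arrays, 0.58 (adjusted p = 0.311) without untreated replicate 3 and -0.10 without RA-treated replicate 5.

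**Figure D5:**
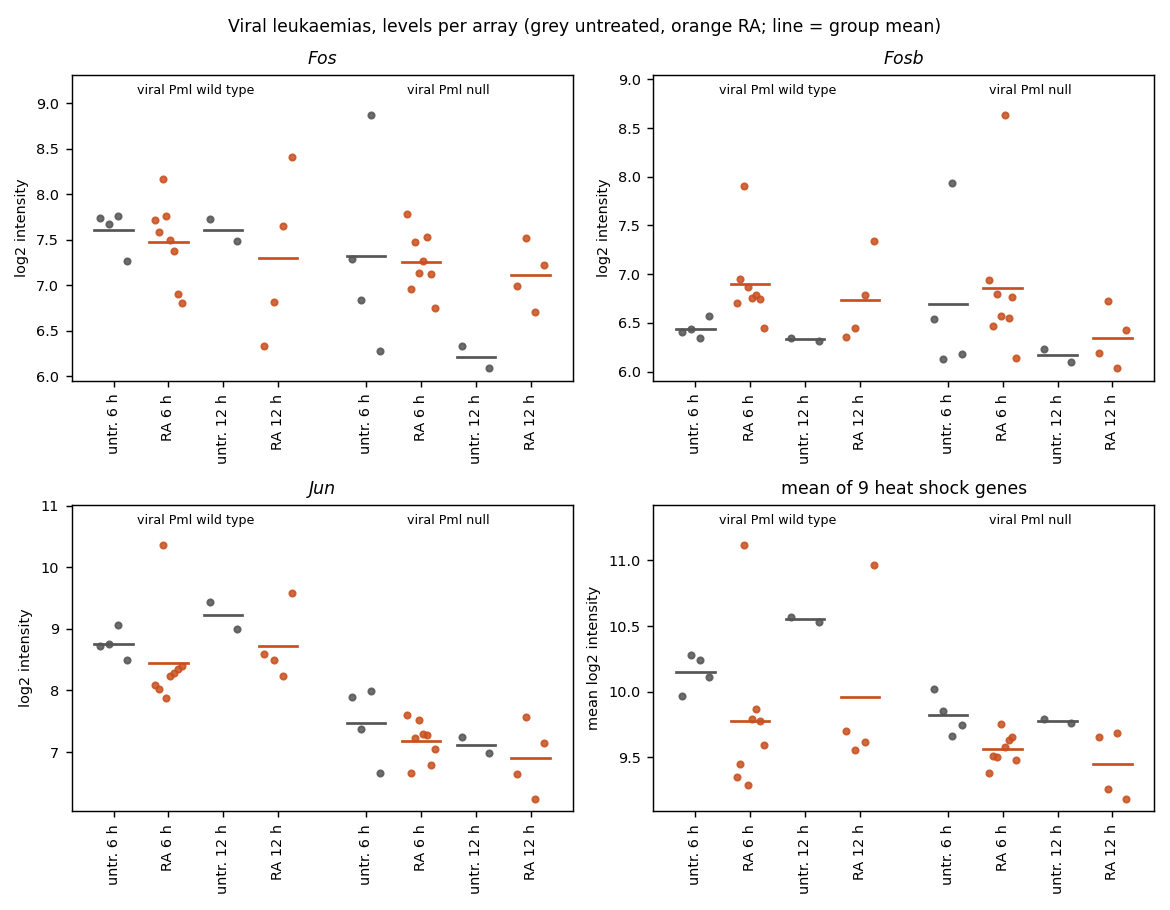
Log2 levels of Fos, Fosb and Jun and the mean level of 9 heat shock genes in every viral array, by group, untreated in grey and RA-treated in orange. The treated Pml wild type array at a Jun level of 10.35 also has the highest heat shock mean, 11.12, whereas the untreated Pml null array at a Fos level of 8.87 has a heat shock mean of 9.66.

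Among genes that act beside the members, Jdp2 and Mafg rose in each of the 8 RA effects. Of 15 measured AP-1 and CREB/ATF relatives, 3 and 4 rose at 6 and 12 h in transgenic PML/RARA, where 14.3% and 21.6% of all genes were called in either direction, and 3 and 2 in PLZF/RARA, against 2.2% and 4.03%. With viral Pml wild type 2 rose at each time, against 9.88% and 6.1%, and in viral Pml null 5 and 2, against 11.4% and 6.05%. None of the 15 fell in any of the 8. Jdp2, which encodes a repressor that pairs with Jun, rose by 1.65 and 1.53 at 6 and 12 h in transgenic PML/RARA and by 0.99 and 0.83 in PLZF/RARA. In the viral leukaemias it rose by 1.62 and 1.60 in Pml wild type and by 2.50 and 2.35 in Pml null. These were larger than any called RA effect of a member. The Jdp2 response in PML/RARA exceeded that in PLZF/RARA by 0.68 ± 0.12 (adjusted p = 0.000378), and smaller in Pml wild type than in Pml null by 0.81 on the log2 scale (a difference of -0.81 ± 0.16, adjusted p = 0.0061). Mafg, a small Maf partner of bZIP proteins, rose by 0.78 to 1.44.

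Upstream and feedback genes of the MAP kinase pathway did not all move alike. Of 11 measured MAP kinases and upstream kinases, 1 rose in transgenic PML/RARA at 12 h (Map2k3) and 1 in viral Pml wild type at 6 h (Mapk7), and 2 fell in viral Pml null at 6 h (Map2k6 and Mapk14). None was called in the other 5 RA effects. Of 12 phosphatases and feedback inhibitors of the pathway, 3 rose in transgenic PML/RARA at each time, 1 and 0 in PLZF/RARA, 4 and 3 in viral Pml wild type and 5 and 4 in viral Pml null. These counts stand against the same shares of all genes, 14.3% and 21.6%, 2.2% and 4.03%, 9.88% and 6.1%, and 11.4% and 6.05%, and differences in count between leukaemias were not tested. Dusp6, an ERK phosphatase, rose by 1.00 ± 0.15 and 1.15 ± 0.14 in transgenic PML/RARA, and its RA effect was larger there than in PLZF/RARA by 0.84 ± 0.17 (adjusted p = 0.00197). A gene of the list fell in PML/RARA at each time, Spry2 at 6 h (-0.47) and Spred1 at 12 h (-0.65).

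Of 26 other immediate early genes, 9 rose and 4 fell in transgenic PML/RARA at 6 h, and 12 rose and 4 fell at 12 h, where 14.3% and 21.6% of all genes were called. In PLZF/RARA 5 and 2 rose and none fell, against 2.2% and 4.03%. Among the viral leukaemias, in Pml wild type 7 rose and 2 fell, then 4 rose and 1 fell (9.88% and 6.1% of all genes), and in viral Pml null 9 rose and 3 fell, then 7 rose (11.4% and 6.05%). Nr4a1, an orphan nuclear receptor gene, rose by 2.00 ± 0.19 and 1.93 ± 0.19 in transgenic PML/RARA and by 2.64 ± 0.19 and 2.28 ± 0.28 in viral Pml wild type. Its RA effect was larger than in PLZF/RARA by 1.89 ± 0.23 (adjusted p = 1.96e-06) and larger in Pml wild type than in Pml null by 2.15 ± 0.24 (adjusted p = 2.29e-06). Irf1, an interferon-responsive factor gene, rose in all 8, by 1.20 to 2.16. The lists were read on the same arrays as the members, whose median change in the same effects was 0.18 and 0.02 in PML/RARA and 0.06 and -0.001 in PLZF/RARA, against 0.02, -0.01, 0.06 and -0.05 for all genes.

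Of the 4 measured genes of serum response factor and its partners, Elk3, a ternary complex factor gene, rose in transgenic PML/RARA by 0.63 and 0.70 and in viral Pml null by 0.96 and 0.64. In untreated arrays it was lower in PML/RARA than in PLZF/RARA (-1.45 ± 0.09, adjusted p = 1.67e-14) and lower in Pml wild type than in Pml null (-0.82 ± 0.12, adjusted p = 1.42e-06). None of the 5 Egr relatives and Nab corepressors was called by limma in any of the 8 RA effects.

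Over all 72 arrays, after batch means were subtracted, the genes whose levels ran most like each member were named by Pearson's r, as a description. Fosl2 was closest to Kcnj2 (0.85), Rgs19 (0.83) and Nfkb2 (0.82). Jun was closest to Tlr2 (0.79), Ina (0.78) and Slc15a3 (0.78), and Ier3 to Nt5c2 (0.81), Pdlim1 (0.81) and Prrg4 (0.80). Fosl2, Jun and Ier3 thus had no other member among their 3 closest genes.

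Junb was closest to Rab20 (0.75), Egr1 (0.73) and Snai1 (0.72), and Egr1 to Plk3 (0.79), Junb (0.73) and Snai1 (0.68). For Fos all 3 closest genes were members, Fosb (0.56), Jun (0.56) and Egr1 (0.53), and Fosb was closest to Jund (0.58), Fos (0.56) and H1f2 (0.54). Jund was closest to Plk3 (0.63), Tnf (0.62) and Chac1 (0.61), Egr2 to Ccl2 (0.75), Smox (0.74) and Rasgef1b (0.70), and Ier2 to Rassf5, Srp19 and Cast (0.64, 0.63 and 0.63). The arrays share groups and treatments, and only 5 of these 30 genes stayed among the closest 3 once group means were subtracted too.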

How the data were processed

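Total RNA of bone marrow was measured on 72 arrays, and each array's group was taken from its labels. The authors deposited log2 values, 35556 per array, made with RMA and the affy package per the submitters' processing notes, which give no versions. RMA evens out intensities between arrays, so a change shared by most genes would not show. Of 23410 annotated probe sets, 21789 with a single symbol gave 19938 genes. limma 3.58.1 (R 4.3.3) was fitted to each model's 36 arrays with group and batch as terms, and its two-sided moderated tests were adjusted by Benjamini-Hochberg over all genes; the fit was tested on simulated data. Differences in RA effect and effects over time share arrays with the RA effects. Correlations used Python 3.11.15, numpy 2.4.6, pandas 2.3.3 and scipy 1.17.1, with 100000 permutations within groups. The promoter windows come from RefSeq. The members and lists were chosen with earlier results of these data known. The text names all 10 members, the 3 genes most like each, and of each list up to 4 genes with the largest moderated statistic in a comparison. With 2 to 8 arrays per group, the number of arrays limits the precision. Alternatives changed the scaling, the filter on dim genes, the model, the batches and single arrays.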

Additional observations from a re-analysis of the deposited data

Results flagged for a closer look

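Of 120 pairs of a member and a group of 4 to 10 arrays, 4 held an array far from the others, on 3 different arrays; chance alone flags about 1 pair in 20. All were RA-treated viral arrays at 6 h. In Pml wild type, Jun was at 10.35 in replicate 3, against 7.88 to 8.39 in the other 7 arrays. Fosb was at 7.91 in the same array, against 6.44 to 6.95. In this array the mean level of 9 heat shock genes was 11.12, against 9.29 to 9.86, and its part in these levels was not tested. Ier2 was at 7.57 in replicate 4, against 7.82 to 7.97, a low value. In Pml null, Fosb was at 8.63 in replicate 5, against 6.14 to 6.94.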

How the results depend on the processing

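Counts of members called moved by more than 1.5 times under the following settings. The share of all genes called under each setting was not computed, so a moved count does not set the members apart from other genes. With arrays centred on their median, 1 member was called in PLZF/RARA at 6 h, in viral Pml wild type at 12 h and between the RA effects of the Pml backgrounds; with quantile normalization repeated, the last 2 were again 1 each. With genes below the median level left out, 1 was called between the fusions' RA effects and 2 in viral Pml null at 6 h. With 1 fit of all 72 arrays, the counts were 1 in PML/RARA at 6 h, 1 at 12 h, 1 in PLZF/RARA at 6 h, 2 between untreated fusions, 1 in viral Pml wild type at 12 h, 2 in viral Pml null at 6 h, 1 between the Pml backgrounds' RA effects and 4 between untreated Pml backgrounds. With untreated arrays of both times pooled, they were 5 in PML/RARA at 6 h, 1 in PLZF/RARA at 12 h, 3 in viral Pml null at 6 h and 0 at 12 h. With a trended, robust prior, 1 was called in PLZF/RARA at 6 h. With array weights, the counts were 5 in PML/RARA at 6 h, 1 in PLZF/RARA at 6 h, 1 in viral Pml wild type at 12 h, 4 in viral Pml null at 6 h, 1 between the Pml backgrounds' RA effects, 6 between untreated Pml backgrounds and 1 (Fosl2) for 12 h minus 6 h in viral Pml null. Requiring 1.5-fold left 0 in PML/RARA at 6 h and at 12 h, 1 in PLZF/RARA at 6 h, 2 between untreated fusions and 0 in viral Pml null at 12 h. Batch 1 alone gave 0 in PML/RARA and 1 in PLZF/RARA at 6 h, batch 3 alone 0 in viral Pml wild type at 6 h and 1 at 12 h, and batch 4 alone 2 in viral Pml null at 6 h. Leaving out both arrays high in heat shock genes, a setting chosen after seeing the data, gave 1 in viral Pml wild type at 12 h, 2 in viral Pml null at 6 h, 1 between the Pml backgrounds' RA effects and 4 between untreated Pml backgrounds. In 1 fit of all 72 arrays the effects whose call changed kept their size, such as 0.32 for Junb in PML/RARA at 6 h. There all arrays share 1 estimate of the spread. Leaving out both arrays high in heat shock genes, which are RA-treated Pml wild type, kept the untreated Fos (0.85) and Jund (0.52) differences and the Junb effect in Pml null at 6 h (0.38). Beyond this, and fewer genes or arrays where the setting leaves some out, the cause was not tested. No member's call changed sign under any of these settings.

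Leaving out 1 array at a time gave 1 to 4 members in PML/RARA at 6 h and 2 to 4 at 12 h, 0 to 3 in PLZF/RARA at 6 h and 0 to 1 at 12 h, 2 to 4 between untreated fusions, 1 in viral Pml wild type at 6 h and 0 at 12 h, 1 to 2 in viral Pml null at 6 h and 0 to 1 at 12 h, 2 to 5 between untreated Pml backgrounds, 0 to 1 for each difference in RA effect and 0 for each change with time. The shares of all genes called in these fits were not computed. The lowest counts in PML/RARA came without untreated replicate 3 or 4 at 6 h and replicate 4 at 12 h. Of the 30 genes most like the members, 5 stayed among the closest 3 with group means subtracted. Averaging probe sets changed no member, since each has 1. The median of all genes was -0.11 in the PLZF/RARA effect at 12 h minus 6 h. No paired analysis was possible because the labels give every array the same replicate number and do not say what the serial codes in the titles mark.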
